A study of Mus musculus with 11 samples.

Results

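The insulin-like growth factor genes were followed through the RNA-seq of Kif20a knockout and wild-type mouse embryos. The set held 10 genes named by symbol: the ligands Igf1 and Igf2, the receptors Igf1r and Igf2r, the binding proteins Igfbp2, Igfbp3, Igfbp4 and Igfbp5, the RNA-binding protein gene Igf2bp1, and H19. They were chosen from the knockout-against-wild-type differences measured in these same libraries, so their values in both contrasts are given below as a description, with no test. Each of the 2 tables lists 20475 genes, and 9 of the 10 genes were found in both. H19 was not analysed here. All 9 genes had a mean of at least 10 normalized counts in both tables and so passed the filter on low values.

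All embryos were mice at E12.5. The germline comparison set 3 knockout libraries against 3 of wild-type littermates. The knockouts carried a knockout-first allele, in which Kif20a is interrupted in every cell by a cassette that holds LacZ and neomycin resistance. That line came from 1 embryonic stem cell clone and was crossed to C57BL/6J mice. The inducible comparison set 3 knockout libraries against 2 labelled wild-type. The inducible knockouts carried floxed Kif20a and CreERT2, a Cre that acts only in the presence of tamoxifen, under the Nestin promoter, which is active in neural progenitors, so that cells of other lineages in the tissue should keep the gene. Litters received tamoxifen at E9.5 and again at E10.5. The controls of this comparison are labelled wild type, and whether they carried Cre or floxed alleles is not given in the labels. In its other experiments with this line the study used floxed littermates, named without the CreERT2 transgene, as controls. Its account of the RNA-seq does not name the control alleles. The labels name the tissue forebrain and the cell type neural cell, whereas the study's methods speak of cortical cells. Markers of neural tissue were present in every library: Pax6, a transcription factor of radial glia, lay between 2121 and 3715 normalized counts in the germline table and between 3276 and 4758 in the inducible table. The labels do not say whether each library came from a separate embryo, so P values measure only the spread between these libraries.

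Insulin-like growth factors 1 and 2 are secreted growth factors that signal through the receptor tyrosine kinase IGF1R to the PI3K, AKT and mTOR pathway, and in the developing brain they promote the survival and proliferation of neural progenitors. IGF2R binds IGF2 and carries it to lysosomes, which removes it from the extracellular space. The binding proteins hold the ligands in the extracellular fluid, where they limit or prolong their action, and proteases release the ligands again. Igf2 is imprinted and, in the embryonic head, is made abundantly by meninges, mesenchyme, vessels and choroid plexus. Several binding protein genes are also known to respond to low oxygen.

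Igfbp2 and Igfbp5 are neighbours on chromosome 1. In NCBIM37 (mm9), the build of the deposited tables, Igfbp2 lies at chr1:72871077-72899048 on the plus strand and Igfbp5 at chr1:72904506-72921458 on the minus strand, with 5457 bases between their 3′ ends. Igfbp3 lies at chr11:7106089-7113926 on the minus strand. The 250 bases ahead of the transcription start of these 3 genes are printed here because Igfbp2 and Igfbp5 were the members whose germline groups did not overlap, and Igfbp3 had the next highest germline log2 fold change after Igfbp2. The sequences come from RefSeq (GRCm38.p6, a later build than that of the tables), at chr1:72824230-72824479 and chr1:72825137-72825386 on the plus strand for the 2 start sites of Igfbp2, at chr1:72874866-72875115 on the minus strand for Igfbp5 and at chr11:7213924-7214173 on the minus strand for Igfbp3. Each reads 5′ to 3′ on the strand of its gene, and capitals mark ACGTG and GCGTG, the core of the hypoxia response element, on either strand.
Igfbp2, first start site: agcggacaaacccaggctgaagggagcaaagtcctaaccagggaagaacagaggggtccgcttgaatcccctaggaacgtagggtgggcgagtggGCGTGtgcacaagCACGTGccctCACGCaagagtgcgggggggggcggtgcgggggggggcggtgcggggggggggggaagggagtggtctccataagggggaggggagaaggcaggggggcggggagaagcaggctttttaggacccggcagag
Igfbp2, second start site: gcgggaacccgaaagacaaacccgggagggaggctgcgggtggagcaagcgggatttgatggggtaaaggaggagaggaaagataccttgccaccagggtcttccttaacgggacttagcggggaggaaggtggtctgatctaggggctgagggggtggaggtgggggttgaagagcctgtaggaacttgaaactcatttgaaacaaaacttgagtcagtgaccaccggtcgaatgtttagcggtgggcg
Igfbp5: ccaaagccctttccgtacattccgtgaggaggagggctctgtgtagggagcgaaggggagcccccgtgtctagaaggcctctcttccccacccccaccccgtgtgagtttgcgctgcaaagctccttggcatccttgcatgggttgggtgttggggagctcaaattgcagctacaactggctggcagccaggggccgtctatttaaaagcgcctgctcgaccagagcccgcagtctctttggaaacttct
Igfbp3: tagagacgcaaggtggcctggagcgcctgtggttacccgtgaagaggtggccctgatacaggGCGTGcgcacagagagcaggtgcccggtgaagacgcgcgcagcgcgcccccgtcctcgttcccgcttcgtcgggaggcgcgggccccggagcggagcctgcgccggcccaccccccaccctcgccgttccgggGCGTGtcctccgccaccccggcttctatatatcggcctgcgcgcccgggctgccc

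The first start site of Igfbp2 held 2 matches to ACGTG, which overlap as the 2 strands of CACGTG, and 2 matches to GCGTG. The second start site of Igfbp2 and the start of Igfbp5 held 0 matches to either. Igfbp3 held 2 matches to GCGTG. RefSeq had a promoter entry for 8 of the 9 genes, with 12 start sites in all, and 6 of these start sites, in 6 genes, held a match. No entry was found for Igf2bp1. Among 32851 windows of 250 bases ahead of all listed starts, 16.6% held ACGTG, 28.2% held GCGTG and 38.6% held either. G and C made up a median of 52.4% of the bases of all windows. They made up 67.2% and 56.4% at the 2 starts of Igfbp2, 58.8% at Igfbp5 and 73.2% at Igfbp3. The shares over all windows are thus not matched for base composition. A match describes the letters of a window and is no evidence of binding.

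Kif20a itself fell in the germline knockouts, from 2477 ± 194 to 429 ± 67.1 normalized counts (mean ± SD, n = 3 and 3). Its log2 fold change was -2.54 ± 0.15 (standard error), with a Benjamini-Hochberg adjusted p of 0.00845 by limma. The study reports that the signal left in the germline knockouts lay in the first exons, and relates this to a cassette that disrupts the full-length transcript. In the inducible knockouts it fell from 4802 ± 59.4 (n = 2) to 2964 ± 143 (n = 3), with a log2 fold change of -0.70 ± 0.06 and an adjusted p of 0.0107 by limma. Normalized counts summed to between 13048716 and 15551274 per germline library and to between 24118520 and 24497307 per inducible library.

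Germline knockout replicate 2 lay far from the other libraries of its table. On the first principal component, which held 58% of the variance, it lay at 91.2 and the other 5 libraries between -38.4 and 3.84. Of 20 marker genes of cranial mesenchyme and meninges, 10 were at or under 3 normalized counts in this library, against at most 1 in any other. Col3a1, a fibrillar collagen, read 2.46 there and between 1838 and 8253 in the other 5 germline libraries. Of 12 microglia markers, 7 were at or under 3 counts in this library and 0 in the others. The germline log2 fold change of each member is therefore also given without this library. The 4 Y-linked genes summed to 1714, 9.83 and 4582 normalized counts among the germline wild-type and to 4.49, 0 and 1377 in the germline knockout libraries. In the inducible comparison they summed to 1.96 and 4.24 among the wild-type and to 3209, 2389 and 3101 in the knockout libraries, so that sex and genotype cannot be told apart there.

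Per kilobase of exon, Igfbp2 had the highest level of the 6 genes whose annotated models allowed the comparison. In germline wild-type libraries, Igfbp2 stood at 1256 ± 209 normalized counts per kb (SD, n = 3). Igfbp5 at 520 ± 162, Igf2 at 427 ± 93.0 and Igf2bp1 at 421 ± 144 per kb followed, and each of these overlapped its neighbour in the order. Igf2r stood at 195 ± 55.8 and Igf1 at 21.4 ± 9.33 per kb, below them without overlap. In the inducible wild-type libraries (n = 2) the order of the levels per kb was Igfbp2 at 3702, Igfbp5 at 1428, Igf2 at 1149, Igf2bp1 at 971, Igf2r at 514 and Igf1 at 21.7, with no overlap between neighbours. The tables were normalized separately, so only the order was set side by side. Igf1r, Igfbp3 and Igfbp4 were left out because their annotated spans differed by more than 2% from those of RefSeq.

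**Figure D1:**
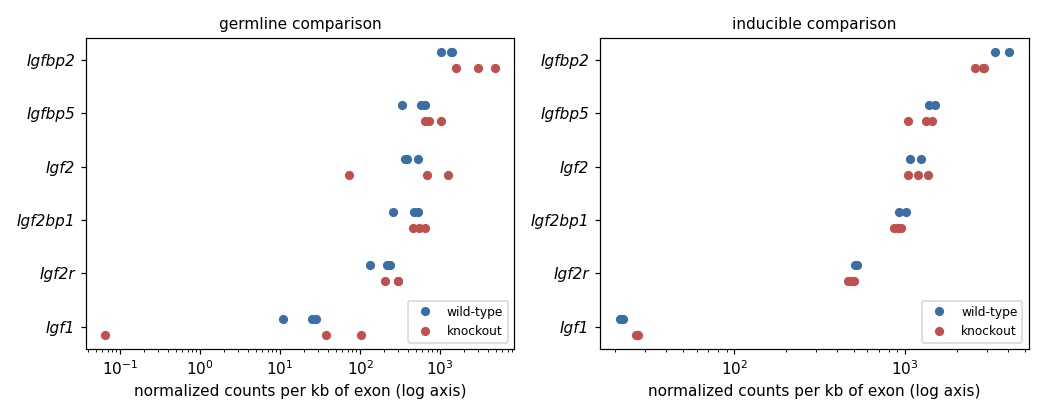
Normalized counts per kb of exon (log axis) of 6 genes in every library, with the germline comparison on the left and the inducible comparison on the right; each point is 1 library. Igfbp2 has the highest wild-type levels in both panels, and the germline knockout point of Igf1 at 0.0655 per kb is knockout replicate 2.

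The ligands followed the divergent library. Igf1, which encodes insulin-like growth factor 1, read 248, 107 and 282 normalized counts among the germline wild-type libraries and 1010, 0.65 and 367 in the knockouts. Knockout replicate 1 was thus at 476% of the wild-type mean and replicate 2 at 0.306% of it, a level under 3 counts, while replicate 3 lay above every wild-type library. The log2 fold change was -1.21 ± 2.19 over all 6 libraries, -3.00 ± 2.08 without knockout replicate 1 and 1.63 ± 0.49 without knockout replicate 2. The value over all 6 libraries also depends on the pseudocount of 1, and was -0.65 ± 1.75 with a pseudocount of 5. Igf2, the ligand that predominates before birth, read 2090, 2012 and 2933 in the wild-type libraries and 6930, 399 and 3758 in the knockouts. It too was highest in knockout replicate 1, at 296% of the wild-type mean, and lowest in replicate 2, at 17.0% of it. The log2 fold change of Igf2 was -0.08 ± 0.95 with all libraries, -0.92 ± 0.86 without knockout replicate 1 and 1.14 ± 0.26 without knockout replicate 2.

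Markers of mesenchyme and meninges varied with the ligands. Their 20 genes summed to 8306, 6499 and 11620 normalized counts among the germline wild-type and to 26930, 1697 and 13840 in the knockout libraries, so that the order of the 3 knockouts was that of both ligands. Lum, a proteoglycan gene of these cells, read 1026, 432 and 1123 among the wild-type and 2218, 0.65 and 1139 among the knockout libraries. The 12 microglia genes summed to 1373, 888 and 754 among the wild-type and to 956, 38.5 and 937 in the knockout libraries, low in replicate 2 only. The 15 endothelial genes summed to between 1956 and 3693 in the wild-type libraries and to 4244, 1024 and 3126 in the knockouts. For the 12 choroid plexus genes the sums were between 2848 and 7632, and 3825, 1960 and 3788. For the 6 pericyte genes they were between 1936 and 3010, and 3951, 2052.5 and 3083. The knockout order of the microglia, endothelial, choroid plexus and pericyte sums was also that of both ligands. The 11 erythroid genes summed to between 67824 and 104900 and to 113150, 23816 and 116370. The 12 radial glia genes summed to between 48820 and 55650 in all 6 libraries. The 12 neuron genes did not stay level: they summed to 60785, 61120 and 49407 among the wild-type and to 24909, 108930 and 32071 among the knockout libraries, where replicate 2 was above and replicates 1 and 3 below every wild-type library, the reverse of the ligands. The part of these cell types, neurons included, in the ligands' values was not tested, and in bulk RNA fewer cells of a type and less RNA per cell cannot be told apart.

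In the inducible comparison the ligands varied far less. Igf1 read 220 and 211 normalized counts among the wild-type and 266, 269 and 263 among the knockout libraries. Every knockout library lay above both wild-type libraries, at a mean of 124% of the wild-type mean and a log2 fold change of 0.30 ± 0.10. The 12 microglia genes were also higher in sum in every knockout library, at 1532, 1448 and 1771 against 1318 and 1243, while their marker Csf1r overlapped between the groups at 210, 216 and 289 against 275 and 208. Igf2 read 6801 and 5821 among the wild-type and 5733, 6530 and 7475 among the knockout libraries, which overlapped, with a log2 fold change of 0.06 ± 0.12. The mesenchyme and meninges genes summed to 22591 and 14983 among the wild-type and to 16722, 19282 and 19535 in the knockout libraries, and 0 of the 20 was at or under 3 counts in any of them. The part of these cells in the ligand values was not tested.

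**Figure D2:**
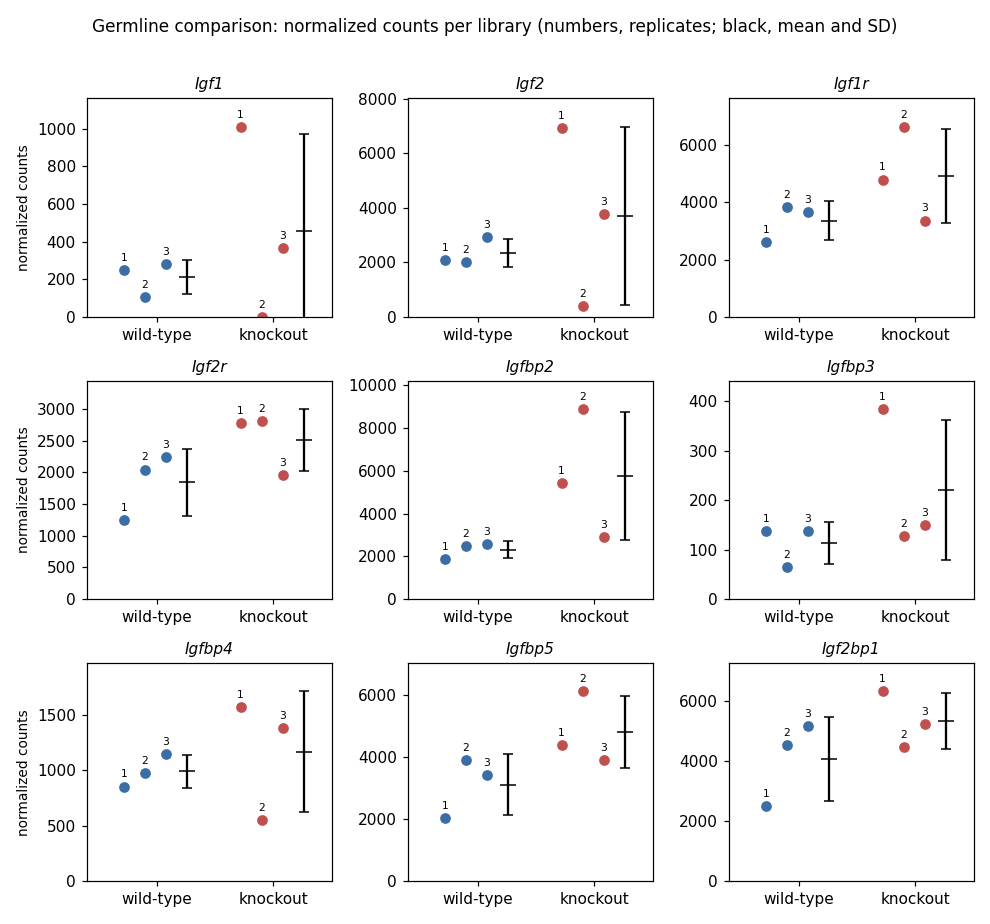
Normalized counts (vertical axes, starting at 0) of 9 insulin-like growth factor genes in each germline library, blue for wild-type and red for knockout, numbered by replicate, with the mean and SD in black (the SD bar of Igf1 runs below 0 and ends at the axis). Knockout replicate 2 is the lowest of all libraries for Igf1, Igf2 and Igfbp4 and the highest for Igf1r, Igf2r, Igfbp2 and Igfbp5.

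The receptors, unlike the ligands, were not low in knockout replicate 2. Igf1r, the signalling receptor of both ligands, read 2597, 3837 and 3657 normalized counts among the germline wild-type and 4795, 6628 and 3360 among the knockout libraries. Knockout replicates 1 and 2 lay above every wild-type library and replicate 3 lay within the wild-type range, with a log2 fold change of 0.52 ± 0.27. Igf2r, the clearance receptor for IGF2, read 1244, 2042 and 2239 among the wild-type and 2775, 2803 and 1953 among the knockout libraries, again overlapping through knockout replicate 3, with a log2 fold change of 0.47 ± 0.26. Without knockout replicate 2 these log2 fold changes were 0.28 ± 0.21 for Igf1r and 0.38 ± 0.26 for Igf2r. Without wild-type replicate 1, the lowest library of both, they were 0.34 ± 0.29 and 0.21 ± 0.20. In the inducible comparison, Igf1r read 6530 and 5921 among the wild-type and 6177, 5951 and 5936 among the knockout libraries, all 3 within the wild-type range. Igf2r read 4939 and 4768 among the wild-type and 4755, 4519 and 4388 among the knockouts, each knockout below both wild-type libraries, although the first was lower than the nearest by a margin far under the SD of 186 between knockouts. The log2 fold changes were -0.05 ± 0.06 for Igf1r and -0.09 ± 0.05 for Igf2r.

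Igfbp2, a binding protein expressed by neural progenitors, had the highest germline log2 fold change of the 4 binding proteins over all 6 libraries. It read 1877, 2488 and 2592 normalized counts among the wild-type and 5448, 8884 and 2905 among the knockout libraries. The groups did not overlap, and the knockouts ranged from 125% to 383% of the wild-type mean, replicate 3 being the lowest and close to the highest wild-type library. The means were 2319 ± 387 and 5746 ± 3001 (SD, n = 3 and 3) and the log2 fold change was 1.18 ± 0.38. It was 0.79 ± 0.26 without knockout replicate 2, 1.60 ± 0.26 without replicate 3 and 1.15 ± 0.46 without replicate 1.

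Igfbp5, its neighbour on the chromosome and a binding protein that also attaches to extracellular matrix, read 2030, 3905 and 3427 among the germline wild-type and 4392, 6126 and 3924 among the knockout libraries. These groups did not overlap either, but knockout replicate 3 exceeded wild-type replicate 2 by less than the spread within either group. The log2 fold change of Igfbp5 was 0.65 ± 0.28, 0.37 ± 0.22 without wild-type replicate 1 and 0.47 ± 0.25 without knockout replicate 2. Igfbp3, the main carrier of these ligands in the circulation, read 138, 65.0 and 137 among the wild-type and 384, 128 and 150 among the knockout libraries, where only replicate 1 was far above the wild-type range. Its log2 fold change was 0.85 ± 0.49, 1.15 ± 0.45 without knockout replicate 2, 0.50 ± 0.50 without wild-type replicate 2 and 0.36 ± 0.39 without knockout replicate 1. Igfbp4, a binding protein cleaved by the protease PAPPA, read 855, 978 and 1150 among the wild-type and 1575, 553 and 1380 among the knockout libraries. Like the ligands, Igfbp4 was lowest of all in knockout replicate 2, and its log2 fold change moved from 0.11 ± 0.38 to 0.58 ± 0.16 when that library was left out. Without knockout replicate 1 it was -0.18 ± 0.39.

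Genes of hypoxia and glycolysis were higher in the same germline libraries as Igfbp2. The 30 genes of this list summed to 45833, 46808 and 45302 normalized counts among the wild-type and to 125640, 185710 and 51140 in the knockout libraries, so that the knockouts had the same order as for Igfbp2. Vegfa, the vascular growth factor gene induced by low oxygen, read 1012, 821 and 1109 among the wild-type and 5202, 11873 and 1302 among the knockout libraries. Past both thresholds (fold change of at least 1.5 and unadjusted P of at most 0.05 by limma) and higher in the knockouts were 19 of the 30 genes, beside 2.07% of all genes tested. Lower were 0 of the 30, beside 0.667%. Their median log2 fold change was 1.18, against -0.04 over all genes tested. The list was written with earlier results of these data known, so these counts are a description. The number higher was 2 without knockout replicate 1, 17 without knockout replicate 2 (with 1 lower) and 27 without knockout replicate 3. It was 4 without wild-type replicate 1, 7 without wild-type replicate 2, 13 without wild-type replicate 3, and 4 without the filter on low values. The part of hypoxia in the values of Igfbp2 was not tested.

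**Figure D3:**
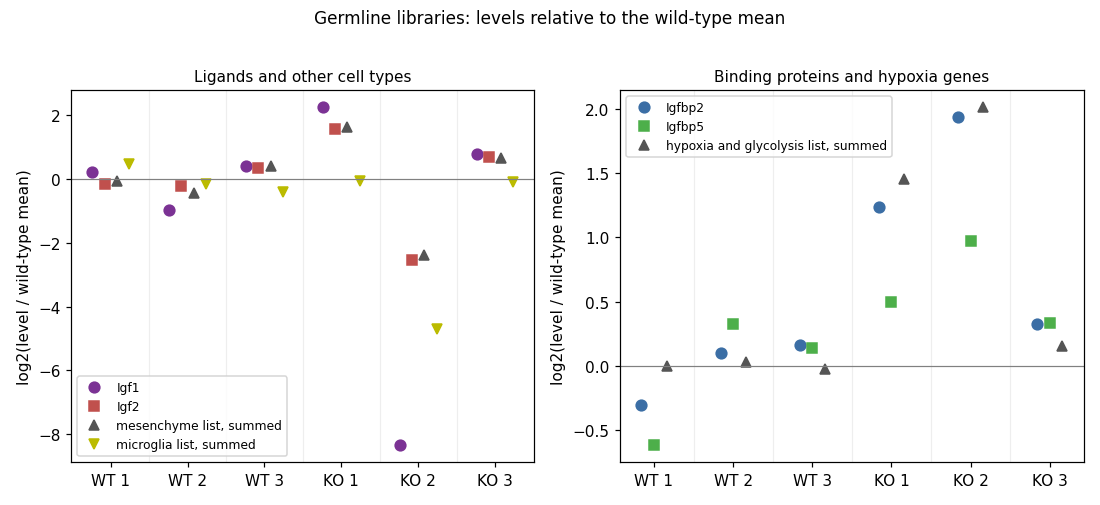
Log2 of the level in each germline library over the wild-type mean, with no pseudocount, for Igf1, Igf2 and the summed mesenchyme and microglia lists on the left and for Igfbp2, Igfbp5 and the summed hypoxia and glycolysis list on the right. On the left, knockout replicate 2 lies below all other libraries; on the right, the hypoxia sum is at 1.45, 2.01 and 0.15 in knockout replicates 1, 2 and 3.

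Igfbp2 differed in the other direction in the inducible comparison. It read 6189 and 7487 normalized counts among the wild-type and 5242, 4732 and 5325 among the knockout libraries, each knockout below both wild-type libraries. The means were 6838 ± 918 (SD, n = 2) and 5100 ± 321 (SD, n = 3), or 74.6% of the wild-type level, with a log2 fold change of -0.42 ± 0.09. Leaving out wild-type replicate 2, the higher of the pair, brought the log2 fold change to -0.28 ± 0.09, and leaving out wild-type replicate 1 brought it to -0.56 ± 0.09. The hypoxia and glycolysis genes summed to 99829 and 124510 among the wild-type and to 98790, 95803 and 113170 in the knockout libraries, which overlapped. Of 29 tested, 1 was past both thresholds and higher, beside 0.802% of all genes, and 0 lower, beside 0.490%. Their median log2 fold change was -0.09, with 8 of 29 above 0, against -0.002 and 49.2% over all genes tested. An unadjusted P of at most 0.05 by limma, in either direction, was reached by 7 of 29, beside 6.01% of all genes. These counts are a description, as in the germline comparison. Igfbp5 read 8228 and 8926 among the wild-type and 6266, 7935 and 8648 among the knockout libraries, with a log2 fold change of -0.18 ± 0.13, and of -0.05 ± 0.07 without knockout replicate 1, the lowest library. Igfbp3 read 324 and 307 among the wild-type and 340, 320 and 451 among the knockout libraries, with a log2 fold change of 0.21 ± 0.15, and of 0.06 ± 0.11 without knockout replicate 3. Igfbp4 read 3189 and 2914 among the wild-type and 3016, 3076 and 2874 among the knockouts, with a log2 fold change of -0.03 ± 0.06. The groups of these 3 binding proteins overlapped.

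Igf2bp1, which encodes an RNA-binding protein that binds the Igf2 transcript and is abundant in embryonic neural progenitors, read 2506, 4535 and 5173 normalized counts among the germline wild-type and 6315, 4457 and 5239 among the knockout libraries. The groups overlapped, the log2 fold change was 0.44 ± 0.28, and without knockout replicate 2 it was 0.57 ± 0.28. Without wild-type replicate 1, the lowest library, it was 0.13 ± 0.19. In the inducible comparison it read 8951 and 9842 among the wild-type and 9163, 8374 and 8771 among the knockout libraries, overlapping, with a log2 fold change of -0.10 ± 0.06.

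**Figure D4:**
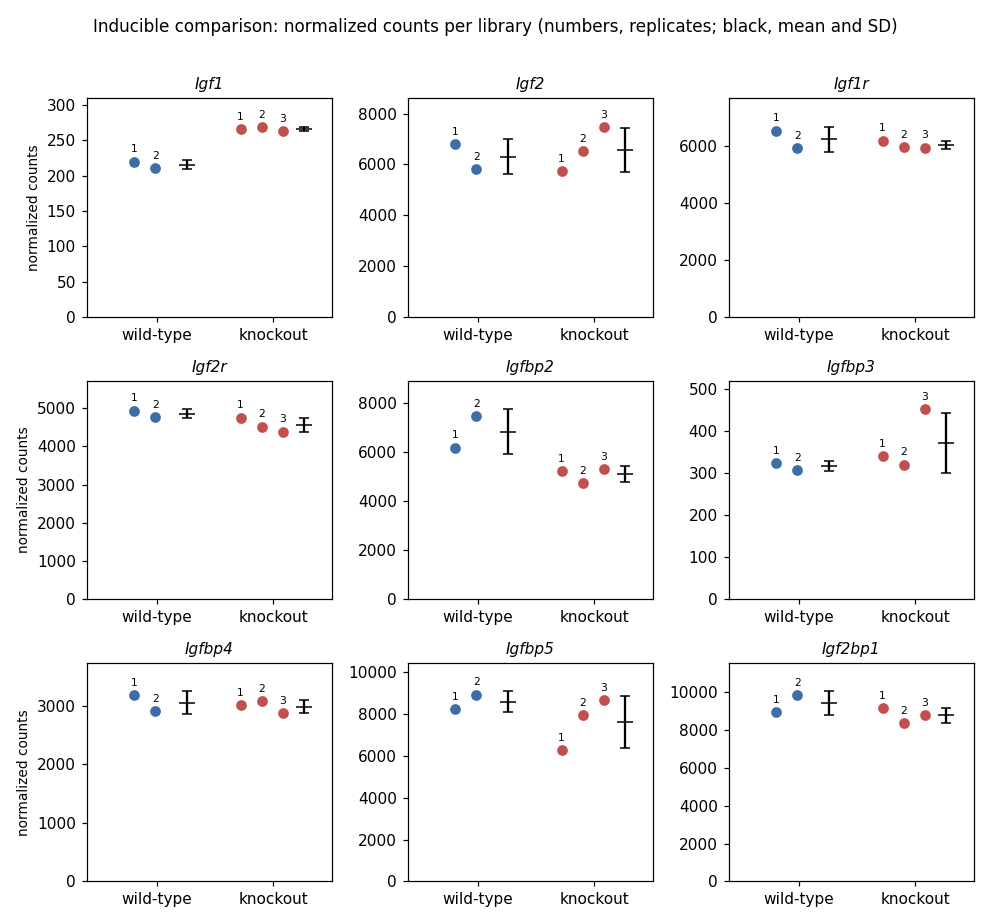
Normalized counts (vertical axes, starting at 0) of the same 9 genes in each inducible library, blue for the 2 wild-type and red for the 3 knockout libraries, numbered by replicate, with the mean and SD in black. The knockout points lie above both wild-type points for Igf1 and below both for Igf2r and Igfbp2; the other 6 genes overlap.

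Over the 9 genes, the germline median log2 fold change was 0.47, with 7 of 9 above 0, against a median of -0.04 and 44.0% above 0 over all 13938 genes tested. Without knockout replicate 2 all 9 were above 0. Of the 9, 1 (Igfbp2) was past both thresholds and higher in the knockouts, beside 2.07% of all genes tested (289), and 0 were lower, beside 0.667% (93). Without wild-type replicate 1, and likewise without the filter on low values, Igfbp2 just missed the threshold on P, and 0 of the 9 were past both. Without knockout replicate 2 there were 4 of 9 (Igf1, Igf2, Igfbp2 and Igfbp3), without knockout replicate 3 there were 3 (Igf1r, Igfbp2 and Igfbp5), and without wild-type replicate 2 there were 2 (Igfbp2 and Igfbp5). Groups without overlap and with the knockouts higher were found for 2 of the 9 (Igfbp2 and Igfbp5), beside 5.90% of all genes, and for 0 with the knockouts lower, beside 7.55%. At an adjusted p under 0.05 by limma, 0 of the 9 passed, beside 0.00717% of all genes, which was Kif20a alone. An unadjusted P no greater than 0.05 was reached by 1 of the 9, beside 5.39% of all genes (751). Nothing is read from these counts, since the genes were chosen with this contrast known.

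Over the 9 genes in the inducible comparison, the median log2 fold change was -0.05, with 3 of 9 above 0, against 0.00 and 49.2% over all 14081 genes tested. Past both thresholds there were 0 of 9 in either direction, beside 0.802% of all genes higher (113) and 0.490% lower (69). The groups did not overlap with the knockouts higher for 1 gene (Igf1), beside 10.4% of all genes, and with the knockouts lower for 2 (Igf2r and Igfbp2), beside 12.2%. At an adjusted p under 0.05 by limma, 0 of the 9 passed, beside 0.0355% of all genes. An unadjusted P no greater than 0.05 was reached by 2 of the 9, beside 6.01% of all genes (846). These counts, too, come from the contrast with which the genes were chosen.

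**Figure D5:**
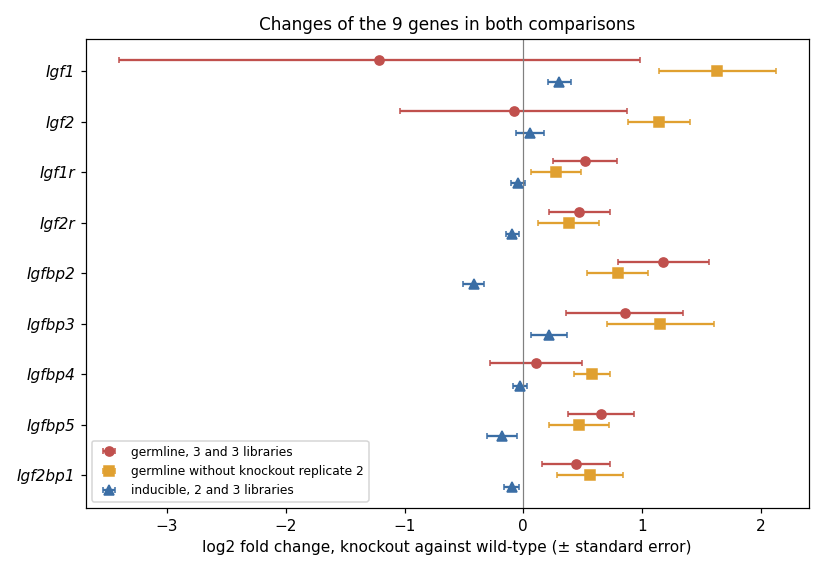
Log2 fold change of knockout against wild-type (horizontal axis; bars are ± 1 standard error) for the 9 genes in the germline comparison, in the germline comparison without knockout replicate 2, and in the inducible comparison. Without knockout replicate 2 the germline value of Igf1 moves from -1.21 to 1.63 and that of Igf2 from -0.08 to 1.14, while Igfbp2 stays above 0 in the germline comparison and lies at -0.42 in the inducible one.

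Other genes of the pathway were taken from 5 lists with 94 genes, of which 81 were tested in each table. In the germline comparison 2 of 81 were past both thresholds and higher in the knockouts, a share near the 2.07% of all genes tested. Lower were 0 of 81, beside 0.667%. The median log2 fold change was 0.08, against -0.04 over all genes tested, and 46 of 81 were above 0, against 44% of all genes. Lin28b, an RNA-binding protein gene whose product blocks let-7 maturation and binds the Igf2 transcript, read 224, 357 and 540 normalized counts among the wild-type and 1085, 732 and 658 among the knockout libraries. The groups did not overlap, with a log2 fold change of 1.20 ± 0.34 and an adjusted p of 0.779 by limma with Benjamini-Hochberg adjustment. Lin28b stayed past both thresholds without each of the 6 libraries in turn, at 0.87 ± 0.29 without wild-type replicate 1 and 1.27 ± 0.35 without knockout replicate 2. Stc2, the gene of a secreted inhibitor of the proteases that cleave Igfbp4, read 40.9, 36.1 and 31.5 among the wild-type and 360, 748 and 36.2 among the knockout libraries. Knockout replicate 3 lay within the wild-type range, while replicates 1 and 2 were far above it. The log2 fold change of Stc2 was 2.55 ± 1.01 with an adjusted p of 0.779 by limma, and of the fits with 1 library left out, only that without knockout replicate 3 (3.81 ± 0.37) kept it past both thresholds. Without knockout replicate 2 it was 1.65 ± 0.78. The pathway genes past both thresholds were 1 without wild-type replicate 1, wild-type replicate 2 or knockout replicate 1. Without wild-type replicate 3 there were 3, all higher (Lin28b, Hmga2 and Pappa). There were 6 higher and 3 lower without knockout replicate 2, and 5 higher and 1 lower without knockout replicate 3. Pappa had a germline log2 fold change of 0.64 ± 0.42 over all 6 libraries and 1.07 ± 0.34 without wild-type replicate 3. Hmga2 and Pappa were named after their values were seen.

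By list, the germline median log2 fold changes were 0.22 for the 9 tested genes that act outside the cell, 0.09 for 15 receptors and adaptors, -0.02 for 25 genes of PI3K, AKT and mTOR, 0.40 for 7 regulators of Igf2 mRNA and 0.02 for 25 imprinted genes. All 7 regulators of Igf2 mRNA were above 0, against 44% of all genes tested. Of them 1, Lin28b, was past both thresholds, beside 2.07% of all genes higher. Leaving out knockout replicate 2, the medians were -0.06, 0.01, -0.19, 0.36 and 0.07 in the same order, and all 7 regulators of Igf2 mRNA were still above 0. Without wild-type replicate 1 the medians were 0.24, -0.03, -0.06, 0.25 and -0.07, again with these 7 above 0. An unadjusted P of at most 0.05 was reached by 5 of the 81, a share near the 5.39% of all genes. Beside Lin28b and Stc2 these were Ptpn11, Pik3r3 and Akt1, named after their values were seen and lower by less than the fold threshold.

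In the inducible comparison 0 of the 81 pathway genes were past both thresholds in either direction, beside 0.802% of all genes higher and 0.490% lower. An unadjusted P no greater than 0.05 by limma was reached by 4 of them, a share near or below the 6.01% of all genes. The median log2 fold change was 0.02, with 47 of 81 above 0, against 0.00 and 49.2% over all genes tested. Pappa, the protease that cleaves Igfbp4 and releases bound ligand, read 1134 and 1163 normalized counts among the wild-type and 1987, 1372 and 1793 among the knockout libraries. Every knockout library was above both wild-type libraries, with a log2 fold change of 0.56 ± 0.14 and an adjusted p of 0.739 by limma, just short of the fold threshold. Without knockout replicate 2 it was 0.72 ± 0.08 and past both thresholds. Of the other pathway genes, 1 was past them without wild-type replicate 1 (Magel2), 2 without wild-type replicate 2 (Insrr and Lin28a), 2 without knockout replicate 1 (Rtl1 and Dio3) and 1 without knockout replicate 3 (Lin28a). The others with a P no greater than 0.05 were Foxo1, Foxo4 and Dcn. All of these were named after their values were seen. By list, the inducible median log2 fold changes were 0.17 for the genes outside the cell, 0.00 for receptors and adaptors and -0.01 for PI3K, AKT and mTOR. They were -0.02 for regulators of Igf2 mRNA and 0.16 for imprinted genes. With 1 library left out in turn, the median of the imprinted genes ranged from -0.05 (without wild-type replicate 2) to 0.22. Of the 7 regulators of Igf2 mRNA, 2 were above 0 over all libraries. Lin28b, called in the germline comparison, read 607 and 560 among the wild-type and 542, 614 and 644 among the knockout libraries. These overlapped, with a log2 fold change of 0.04 ± 0.10.

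Likeness to Igfbp2 across libraries was the root-mean-square difference over all 11 libraries of log2(normalized count + 1), each gene centred on the wild-type mean of its table, among the 13741 genes tested in both. The smallest differences from Igfbp2 were those of Pfkl (0.17), a phosphofructokinase subunit, Grhpr (0.18), a glyoxylate reductase, Gys1 (0.19), glycogen synthase, Gpi1 (0.20), glucose phosphate isomerase, and Eno1 (0.20), an enolase whose reads may be shared with a near-identical copy, against a median of 0.80 over all genes. Pfkl read 1059, 1813 and 1535 normalized counts among the germline wild-type and 3686, 4317 and 1678 among the knockout libraries. In the inducible libraries Pfkl read 4187 and 5025 among the wild-type and 3690, 3636 and 4235 among the knockouts.

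The genes most like Igf2 by the same measure were Gpr124 (0.15), an adhesion receptor of vessels, Cd248 (0.17), a surface protein of stromal cells and pericytes, Col6a2 (0.17), a collagen chain, Mme (0.18), a membrane peptidase, and Aebp1 (0.18), a matrix-associated protein, against a median of 0.98 over all genes. Col6a2 read 108, 95.3 and 144 normalized counts among the germline wild-type and 317, 14.2 and 195 among the knockout libraries, lowest in knockout replicate 2 as Igf2 was. These likenesses describe 11 libraries that share depth and tissue composition, and carry no test.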

How the data were processed

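Poly(A) RNA of E12.5 embryos was sequenced on an Illumina HiSeq2000. Reads were aligned by the authors with TopHat to mm9 (version 1.2.0 in the submitters' processing notes, where the study's methods name a later one) and counted on RefSeq exons. The authors then scaled the counts by TMM, a trimmed mean of log ratios, with edgeR. What they deposited is a signal, normalized counts for every gene and library in 1 table per comparison. Since the values are fractional, no count model was used. The authors scaled each table alone, and no level was compared between tables. The scaling assumes that most genes do not change.

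Libraries were grouped by their labels. Log2(normalized count + 1) was fitted in R 4.3.3 with limma 3.58.1 (lmFit, eBayes with a trend, two-sided), over genes whose normalized counts averaged 10 or more in a table, 13938 in the germline table and 14081 in the inducible table. A fold change of at least 1.5 with an unadjusted P of at most 0.05, the study's limits, counted as past both thresholds. Benjamini-Hochberg adjustment ran over all genes tested. Log2 fold changes are on this scale with its pseudocount of 1, which understates changes of low genes. Levels of at most 3 normalized counts were taken as the floor. The scripts were tested on simulated data.

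The members, the marker and pathway lists and the rule for named genes were chosen with earlier results of these data known. Named by this rule are the 10 members and Kif20a, and pathway genes past both thresholds in the main fits (at most 8 per list). So are the 5 genes most like Igfbp2 and Igf2, and up to 3 markers of a list. Outside the rule, pathway genes within the P threshold alone, or past both thresholds only in an alternative fit, were named after their values were seen. Gene positions and exon lengths came from GENCODE M1 (NCBIM37) and promoters from RefSeq (GRCm38.p6), matched by symbol in Python 3.11.15 with pandas 2.3.3. The files give no read depth, so no counting intervals were computed. Alternatives were other pseudocounts, no filter, other scalings, a replicate block and each library left out.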

Additional observations from a re-analysis of the deposited data

Results flagged for a closer look

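Igfbp2, Igf2r and Igf2bp1 differed in opposite directions between the comparisons: every germline knockout library lay above the wild-type mean of its table and every inducible knockout library below it. The germline log2 fold change exceeded the inducible one by 1.60 for Igfbp2, by 0.56 for Igf2r and by 0.54 for Igf2bp1. In this order, the germline log2 fold changes were 0.79, 0.38 and 0.57 without knockout replicate 2 and 1.03, 0.21 and 0.13 without wild-type replicate 1. The differences between the comparisons were not tested. The comparisons differ in allele, tamoxifen, control genotype, normalization and the sexes of the libraries by their Y-linked genes, which cannot be told apart.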

How the results depend on the processing

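Whether replicate numbers pair the libraries is not known, and the main fits used no pairing. The deviations of same-numbered libraries correlated at -0.12, 0.31 and 0.25 in the germline and at -0.35 and -0.05 in the inducible comparison. Between differently numbered libraries they correlated at -0.36 to 0.33 and at -0.31 to 0.35. Centring within such small groups ties these correlations to each other, so they cannot decide the pairing. With a replicate block, 3 of the 9 members were past both thresholds in the germline comparison (Igfbp2, Igfbp3 and Igfbp5). In the inducible one 1 pathway gene was past them and lower (Lin28a). With the block, 278 and 98 germline genes and 110 and 53 inducible genes were higher and lower, and the inducible log2 fold change of Igf2 was -0.04. Inducible knockout replicate 3 has no same-numbered wild-type library, so the block takes it out of the estimate. The inducible log2 fold changes with the block are therefore those without this library, and tell nothing about pairing. Without the filter, 0 members were past both thresholds in the germline comparison, 161 germline genes were lower, and 196 and 151 inducible genes were higher and lower, with Stc2 no longer among the calls. Median-of-ratios scaling gave 2 members higher (Igfbp2 and Igfbp5) and 60 germline genes lower, and quantile normalization 2 members higher (the same 2). With each library left out in turn, over the genes of the full filter, germline counts ranged from 115 to 618 higher and from 42 to 645 lower, pathway genes from 1 to 6 higher and from 0 to 3 lower, and members from 0 to 4 higher. The inducible counts ranged from 80 to 252 higher and from 44 to 90 lower, and pathway genes from 0 to 2 higher and from 0 to 2 lower; leaving out a wild-type library there leaves 1, assumed to vary like the knockouts. Uncalled members changed sign in the germline comparison for Igf2 (0.09 without wild-type replicate 3, 1.14 without knockout replicate 2), Igf1 (1.63 without knockout replicate 2) and Igfbp4 (-0.18 and -0.08 without knockout replicates 1 and 3), and in the inducible one for Igf2 (-0.06 without wild-type replicate 2, -0.04 without knockout replicate 3), Igf1r (0.02) and Igfbp4 (0.04), both without wild-type replicate 1. The cause of these shifts was not tested. Pseudocounts of 0.1 and 5 changed no count by over 1.5 times, but the germline log2 fold change of Igf1, which has a library near 0, was -1.59 and -0.65 with them and -0.57 under quantile normalization.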
